A study of Mus musculus with 21 samples.

Results

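The 10 genes described here are 9 that encode Toll-like receptors (Tlr1, Tlr2, Tlr3, Tlr4, Tlr7, Tlr9, Tlr11, Tlr12 and Tlr13) and Unc93b1, which encodes the chaperone of the endosomal receptors. They were taken by gene name from the 37734 genes measured in every library, and each name matched 1 gene. RNAseq was performed on conventional dendritic cells (cDCs) of C57BL/6 mice aged 6 to 8 weeks. CD11c+ cells were released from spleen and thymus by enzymes, enriched on magnetic beads and sorted by FACS. Cells kept as cDC1 were CD24+ and CD11b-, and lacked F4/80, Ly6G, Ly6C, DX5 and B220. Those kept as cDC2 were CD11b+ and CD24- and lacked B220, and the labels list no exclusion of F4/80, Ly6G, Ly6C or DX5 for them. Cells without CCR7 and ESAM were taken as immature, cells with both as mature, and mature cells came from the thymus alone. The 6 groups were, for cDC1, immature cells of the spleen (5 libraries), immature cells of the thymus (4) and mature cells of the thymus (3), and for cDC2 the same 3 kinds of cells with 3 libraries each. The labels name no transgene and no treatment of the mice, and each library held cells pooled from several mice.

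Toll-like receptors are membrane proteins that recognize conserved microbial molecules and signal through the adaptors MyD88 or TRIF. Receptors such as those of Tlr1, Tlr2 and Tlr4 act at the cell surface on bacterial lipoproteins and lipopolysaccharide, whereas those of Tlr3, Tlr7, Tlr9, Tlr11, Tlr12 and Tlr13 act in endosomes and depend on Unc93b1 to leave the endoplasmic reticulum. Mouse cDC1 are known for Tlr3 and for Tlr11 and Tlr12, the receptors of the profilin of Toxoplasma, and cDC2 for Tlr7.

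Values are normalized read counts, that is, the reads of a gene divided by a size factor of the library, and between 14266867 and 40119669 reads were recovered per library. Replicates 4 and 5 of immature splenic cDC1, from the same pool and lane, differed by a chi-square of 2.44 per degree of freedom, against 25.0 to 176 for the other pairs of that group, and were averaged as 1 sample (replicate 4), which left 4 samples in that group. Replicate 3 of immature splenic cDC1 stood apart from the others of its group (up to 176 per degree of freedom), and so did replicate 3 of mature thymic cDC2 (125 and 144, against 26.9 between the other pair). Replicate 2 of splenic cDC2 (106 and 132, against 35.3) and replicate 3 of immature thymic cDC1 (56.1 to 92.8, against 22.8 to 37.3) also stood apart. The latter shares its pool number and lane with replicate 4 of its group, from which it differed by 92.8 per degree of freedom, and both were kept as separate samples. The cDC1 marker Xcr1 lay at 8385 to 15629 in immature splenic and 16194 to 20744 in immature thymic cDC1, at 253 to 557 in mature thymic cDC1 and at most 364 in any cDC2 sample. Sirpa, which marks cDC2, was at 18967 to 28215, 13773 to 16706 and 5415 to 8425 in splenic, immature thymic and mature thymic cDC2 and at most 1548 in cDC1, and Ccr7 was at 91722 or more in every mature sample and at most 5433 in the immature ones. The 5 cDC1 markers summed to 78004 to 89757, 82514 to 91759 and 40302 to 43791 in splenic, immature thymic and mature thymic cDC1, and to 14299 to 22307 in mature cDC2. The 5 cDC2 markers summed to 13915 or more in every cDC2 sample and at most 3605 in cDC1, with Itgam, which encodes CD11b, at 0 in mature cDC1, and the 5 markers of mature cDCs to 361955 or more in mature and at most 31418 in immature samples. Libraries were sequenced in lanes 5 and 8, and lane 8 held all mature samples, 3 immature thymic cDC1, 2 immature thymic cDC2, 2 splenic cDC1 and 1 splenic cDC2. In bulk RNA of sorted cells, fewer cells that express a gene and less RNA per cell cannot be told apart.

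Genes were compared between groups with limma on log2(value + 1), and a difference counted as called at a Benjamini-Hochberg adjusted p below 0.1, over 14970 genes, together with a change of more than 2-fold. Ratios between groups, given as times, are of the means of the values, whereas log2 fold changes are differences of mean log2 values. These measures can differ where the samples of a group vary widely. All 10 genes entered the test. At maturation of thymic cDC1, 1 of them was called higher and 6 lower, where 21.3% and 24.5% of all genes were called higher and lower. Among the 6, Tlr7 lost its call in 10 of 20 alternatives. At maturation of thymic cDC2, 1 was called higher and 2 lower, beside 18.6% and 17% of all genes. For the difference between these maturation effects (cDC2 minus cDC1), 5 genes were called positive and 2 negative, beside 8.34% and 5.25%. Between subsets, cDC2 exceeded cDC1 for 3 genes in the spleen and fell below it for 3, beside 9.93% and 6.7% of all genes. The same comparison of immature thymic cells gave 3 higher and 4 lower in cDC2 (11% and 5.42% of all genes), and that of mature thymic cells gave 4 higher and 0 lower (14.6% and 4.36%). Between tissues, 0 genes were called higher and 1 lower in thymic than in splenic immature cDC1, beside 4.26% and 4.52% of all genes. For immature cDC2 the counts were 1 and 3, beside 8.3% and 5.87%, and the difference between the tissue effects was called positive for 1 gene and negative for 0, beside 3.27% and 1.71%. The samples are pools of mice, so that the p-values measure the spread between these samples. Replicates 1 and 4 of splenic cDC1 carry the same pool number, as do replicates 3 and 4 of immature thymic cDC1, so that each of these groups of 4 holds 3 pool numbers and its samples may not be independent.

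**Figure D1:**
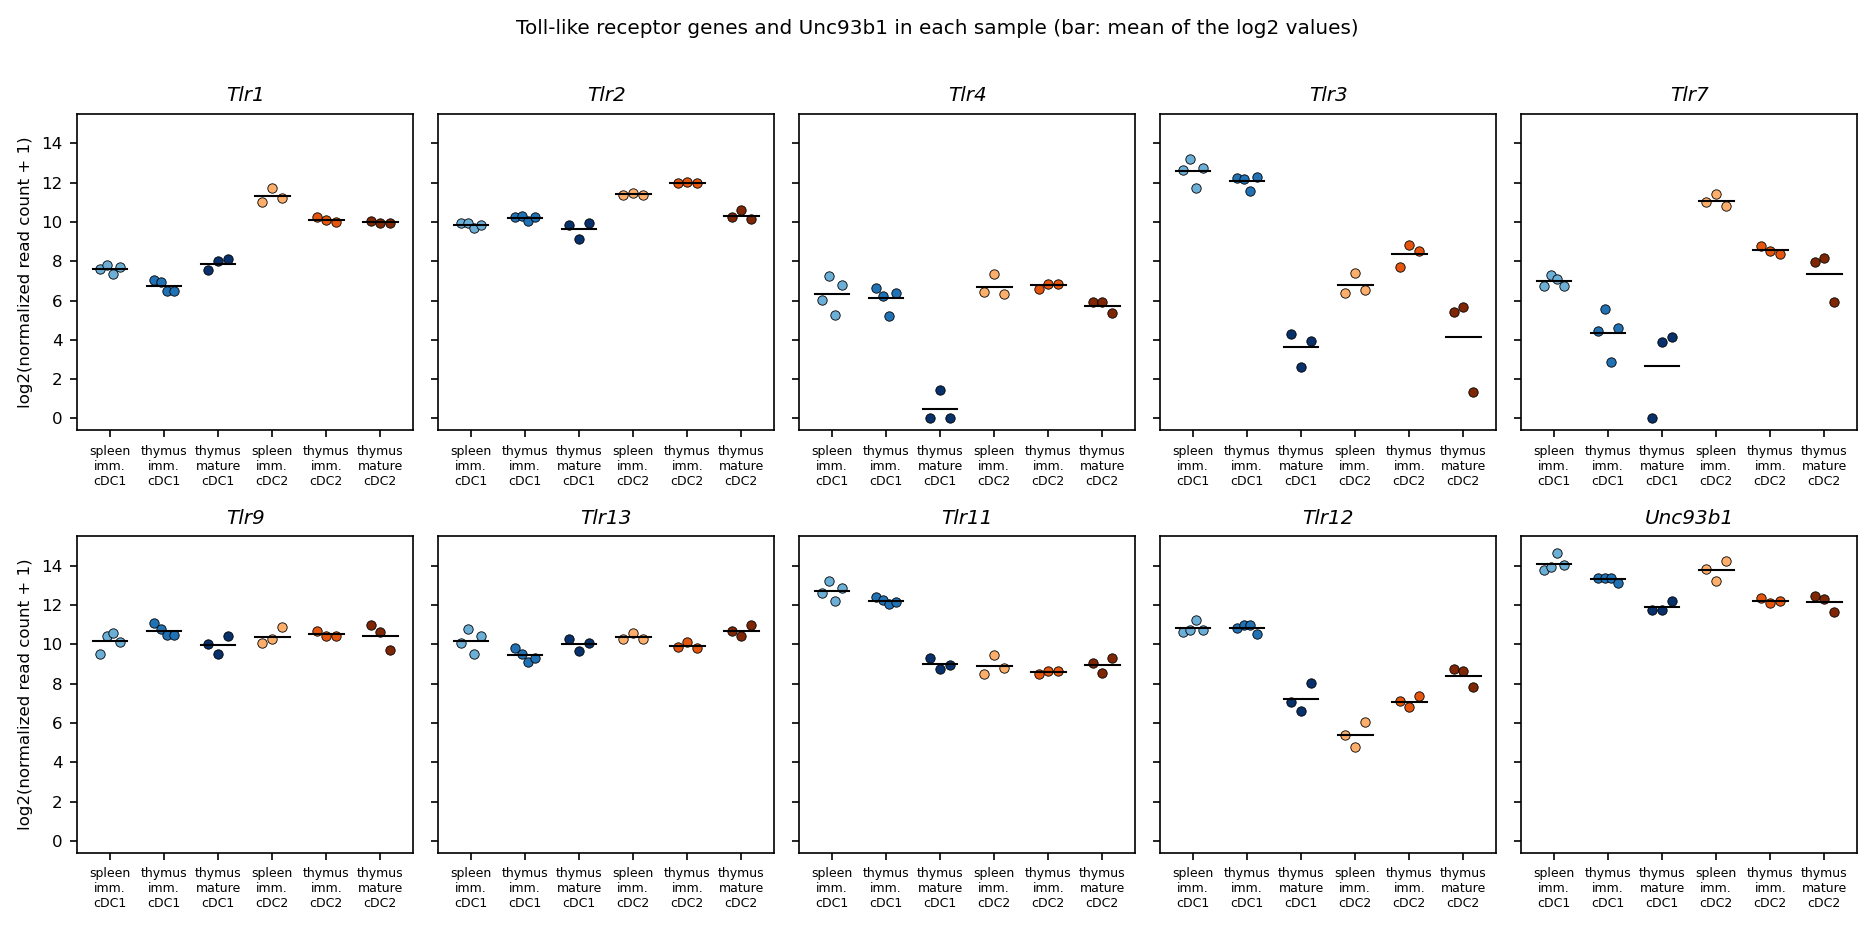
Normalized read count of each of the 10 genes in each of the 20 samples, as log2(value + 1) on the vertical axis, by group on the horizontal axis, with a bar at the mean of the log2 values. Tlr2, Tlr3, Tlr4, Tlr9, Tlr11, Tlr12 and Unc93b1 were lower in every mature than in every immature thymic cDC1 sample, and over the 20 samples Tlr9 stayed between 719.6 and 2191 and Tlr13 between 557 and 2064. At maturation of thymic cDC1, 24.5% of all genes were called lower, and the share of all genes without overlap is not given here.

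An order between genes was taken per kilobase of exon. Summed over the 9 receptor genes and Tlr5, Tlr6 and Tlr8, immature splenic cDC1 held 5080.5 ± 1165 (SD, n = 4) normalized reads per kilobase and immature thymic cDC1 4031 ± 442 (SD, n = 4), while mature thymic cDC1 held 1135 ± 249.8 (SD, n = 3). In cDC2 the sum was 3463 ± 489.6 in the spleen, 2818 ± 68.3 in immature and 1945 ± 203 in mature thymic cells (SD, n = 3 each). The profilin receptor Tlr11 made up 41.8% ± 3.39 of this sum in immature splenic cDC1, Tlr3 24.1% ± 4.85 and Tlr12 12.2% ± 5.10. Immature thymic cDC1 had the same first 3 genes, at 36.6% ± 0.956, 20.8% ± 3.46 and 14.5% ± 2.80. In mature thymic cDC1 the first 3 were Tlr9 (26.0% ± 3.28), Tlr2 (23.7% ± 1.40) and Tlr13 (21.6% ± 2.32), of which Tlr2 overlapped both others while every share of Tlr9 lay above every share of Tlr13, and Tlr3 accounted for 0.204% ± 0.0845. Splenic cDC2 were led by Tlr2 (26.4% ± 2.62), Tlr1 (22.3% ± 2.75) and Tlr7 (15.4% ± 2.16). Tlr2 took 47.9% ± 1.45 of the sum in immature thymic cDC2, ahead of Tlr9 (15.0% ± 1.38) and Tlr1 (11.8% ± 0.927). In mature thymic cDC2, Tlr2 (22.2% ± 3.70), Tlr9 (21.6% ± 6.78) and Tlr13 (20.6% ± 6.32) overlapped. The same 3 genes led in each group when the longest transcript was used as the length.

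**Figure D2:**
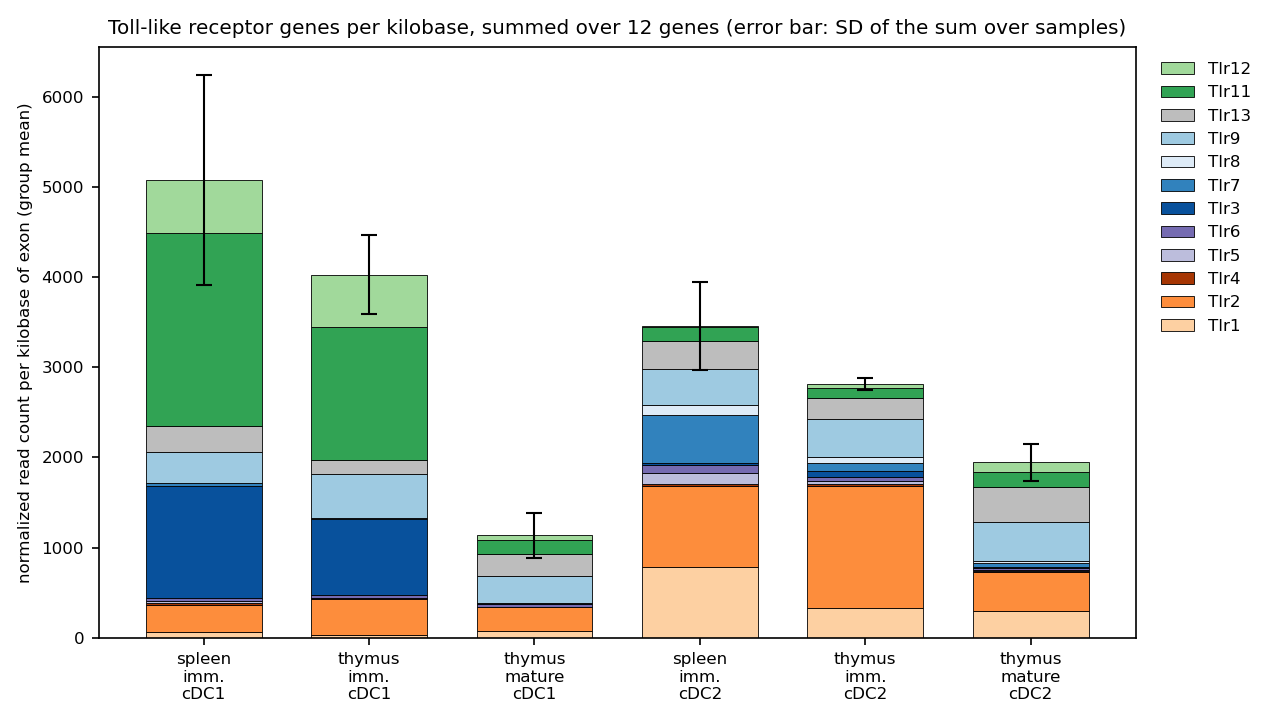
Mean normalized read count per kilobase of exon of 12 Toll-like receptor genes, stacked by group on a linear axis, with the SD of the sum over samples as the error bar. The stack of mature thymic cDC1 reached 1135 against 4031 in the immature cells, and the segments of Tlr3, Tlr11 and Tlr12 took up most of the difference.

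Among the surface receptors, Tlr1 and Tlr2 encode the subunits of a receptor for triacylated lipoproteins, and both were higher in cDC2 than in cDC1 among immature cells. Tlr1 (ENSMUSG00000044827, chromosome 5, 64924679 to 64933563, minus strand, GRCm38) had values of 194, 221, 163 and 205 in immature splenic, 132, 121, 88.9 and 89.9 in immature thymic and 186, 256 and 272 in mature thymic cDC1. In cDC2 the values were 2033, 3389 and 2410 in the spleen, 1222, 1088 and 1020.3 in immature thymic and 1056, 976 and 986 in mature thymic cells. Each cDC2 sample thus lay above each cDC1 sample. The mean of splenic cDC2 was 13.3 times that of splenic cDC1 (log2 fold change 3.71 ± 0.20 (SE), limma adjusted p = 1.91e-11), that of immature thymic cDC2 10.3 times that of cDC1 (3.37 ± 0.20 (SE), limma adjusted p = 1.20e-10). In mature cells the ratio was 4.22 (2.09 ± 0.21 (SE), limma adjusted p = 6.79e-07). Tlr1 was the receptor gene that rose at maturation of thymic cDC1, from 108 ± 21.7 (SD, n = 4) to 238 ± 45.7 (SD, n = 3) (1.14 ± 0.20 (SE), limma adjusted p = 5.85e-05), without overlap, and its values within lane 8 alone gave 1.24. It was not called in cDC2, where the change was -0.14 ± 0.21 (SE), and the difference between the subsets was called (-1.28 ± 0.29 (SE), limma adjusted p = 0.00624). Splenic cDC2 held 2.35 times the Tlr1 of immature thymic cDC2 (-1.20 ± 0.21 (SE), limma adjusted p = 3.57e-04), a change that came out just under 2-fold without replicate 2 of splenic cDC2. The order of the group means put mature above splenic cDC1, but these groups overlapped.

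Tlr2 (ENSMUSG00000027995, chromosome 3, 83836272 to 83841767, minus strand), the partner of Tlr1 and Tlr6, was highest in immature thymic cDC2. It lay at 3983, 4152 and 4072 there, at 2673, 2891 and 2635 in splenic cDC2 and at 1201, 1569.5 and 1124 in mature thymic cDC2. In cDC1 it lay at 986, 982, 821 and 909 in the spleen, 1233, 1246, 1075 and 1229 in immature and 912, 567 and 976 in mature thymic cells. The 3 cDC2 groups did not overlap each other, and mature cDC2 overlapped immature thymic cDC1. Tlr2 fell at maturation of thymic cDC2, by 3.13 times (-1.66 ± 0.17 (SE), limma adjusted p = 1.15e-07). In cDC1 the change was -0.58 ± 0.16 (SE) and did not reach 2-fold (limma adjusted p = 0.00394), and the difference between the subsets was -1.08 ± 0.24 (SE), limma adjusted p = 0.0043. That difference lay between -0.93 and -0.98, within the 2-fold limit, when replicate 1 or 3 of mature cDC1 or replicate 3 of mature cDC2 was left out. The excess of cDC2 over cDC1 was 2.96 times in the spleen (1.57 ± 0.16 (SE), limma adjusted p = 2.34e-07) and 3.40 times in immature thymic cells (1.77 ± 0.16 (SE), limma adjusted p = 5.14e-08). In mature cells it was 1.59 times and not called (0.69 ± 0.17 (SE), limma adjusted p = 0.00604). Between tissues, the thymic samples were higher than the splenic ones without overlap in both subsets, at log2 fold changes of 0.37 ± 0.15 (SE) in cDC1 and 0.57 ± 0.17 (SE) in cDC2, neither past 2-fold.

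Tlr4 (ENSMUSG00000039005, chromosome 4, 66827584 to 66930284, plus strand), the lipopolysaccharide receptor, was at a low level in 5 groups and near 0 in mature thymic cDC1. It lay at 63.8, 153, 36.9 and 108 in splenic and 97.1, 75.0, 35.9 and 82.9 in immature thymic cDC1, and at 0, 1.73 and 0 in mature thymic cDC1. The 3 mature cDC1 libraries held 1 read of Tlr4 in all, against 310 reads in the 4 immature ones, a ratio of 183 for the pooled reads over the summed size factors, with a 95% counting interval of 32.6 to 7252. In cDC2 the values were 84.2, 162 and 79.8 in the spleen, 96.1, 115 and 114 in immature and 59.9, 59.2 and 40.8 in mature thymic cells. Tlr4 fell at maturation of cDC1 (-5.63 ± 0.50 (SE), limma adjusted p = 5.27e-09). With mature values at or near 0, the size of this log2 change depended on the settings, from -8.02 to -3.17 over 20 alternatives. In cDC2 the mature samples lay below the immature ones without overlap, but the change of -1.03 ± 0.53 (SE) was not called by limma (adjusted p = 0.123). With DESeq2 that change was -1.02, DESeq2 adjusted p = 0.062, which passes the threshold. The difference between the maturation effects was called (4.61 ± 0.73 (SE), limma adjusted p = 2.39e-04), as was that between mature cDC2 and cDC1 (5.26 ± 0.53 (SE), limma adjusted p = 5.67e-07), which rests on 215 reads against 1. Over the alternatives, the former ran from 2.23 to 6.98 and the latter from 2.83 to 7.64. The 4 immature groups overlapped each other, and no difference between immature subsets or tissues was called, with log2 fold changes from -0.21 to 0.65.

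Tlr3 (ENSMUSG00000031639, chromosome 8, 45395665 to 45411080, minus strand), the sensor of double-stranded RNA, had the largest log2 fold change of the 10 genes, that of cDC1 at maturation. Its exons overlap those of the antisense gene Gm45542 on the other strand, and the strand setting of the authors' counting is not given in the sources used here. The values were 6499.9, 9323, 3416 and 6834 in immature splenic cDC1 and 4805, 4691, 3013 and 5064 in immature thymic cDC1. Mature thymic cDC1 were at 18.4, 5.20 and 14.4, with no sample above 18.4, and these values rest on 10, 3 and 18 reads. Splenic cDC2 were at 83.3, 168 and 91.3, immature thymic cDC2 at 210.3, 461 and 371 and mature thymic cDC2 at 42.2, 50.8 and 1.57. The mature thymic cDC2 values rest on 55, 73 and 2 reads. Every group of immature cells was apart from the mature ones, and the lowest immature cDC1 sample was above the highest cDC2 sample. At maturation of cDC1 Tlr3 fell from 4393 ± 933 (SD, n = 4) to 12.7 ± 6.78 (SD, n = 3), a ratio of 347 (-8.45 ± 0.70 (SE), limma adjusted p = 2.20e-09), and in the samples of lane 8 the change was -8.40. In cDC2 its mean fell 11.0 times, and the log2 fold change was -4.21 ± 0.75 (SE), limma adjusted p = 1.03e-04. That change was -2.81 without replicate 3 of mature cDC2, which held the lowest value of all. Without replicate 1 or 2 of mature cDC2 the change was -4.84 or -4.97. The effects of maturation differed between the subsets (4.25 ± 1.03 (SE), limma adjusted p = 0.00896), by 5.65 without replicate 3 and by 3.61 and 3.48 without replicate 1 or 2 of mature cDC2.

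Immature splenic cDC1 held 57.1 times the Tlr3 of splenic cDC2 (-5.81 ± 0.70 (SE), limma adjusted p = 2.20e-06), and immature thymic cDC1 12.7 times that of thymic cDC2 (-3.70 ± 0.70 (SE), limma adjusted p = 4.50e-04). Between mature cDC2 and cDC1 the groups overlapped and the difference was not called (0.54 ± 0.75 (SE), limma adjusted p = 0.652). Without replicate 3 of mature cDC2 it was 1.95, limma adjusted p = 0.00495, past the threshold, and without replicate 1 or 2 it was -0.09 or -0.22. In immature cDC2, Tlr3 was higher in each thymic than in each splenic sample, at 3.04 times the mean, which limma did not call (1.60 ± 0.75 (SE), limma adjusted p = 0.152). The edgeR test called it (1.57, edgeR adjusted p = 0.0307), and so did DESeq2 (adjusted p = 0.071). The cDC1 marker Xcr1 moved with it, at 64.1, 50.6 and 26.1 in the splenic and 88.6, 251 and 364 in the immature thymic cDC2 samples. Clec9a, also a cDC1 marker, went the other way, at 827, 996 and 924 in splenic and 225, 423 and 405 in immature thymic cDC2. The 5 listed cDC1 markers summed to 2841 to 4238 and 2818 to 4785. The part of cDC1 cells in the Tlr3 difference was not tested.

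Tlr7 (ENSMUSG00000044583, chromosome X, 167304929 to 167330558, minus strand), a sensor of single-stranded RNA, was highest in splenic cDC2. Values there were 2063, 2721 and 1768, against 444, 361 and 335 in immature and 249.5, 287 and 60.4 in mature thymic cDC2. In cDC1 they were 107, 158, 134 and 105 in the spleen, 21.1, 45.8, 6.24 and 23.2 in immature and 0, 13.9 and 16.8 in mature thymic cells. The splenic samples of either subset lay above all immature thymic samples of that subset. Splenic cDC2 exceeded splenic cDC1 17.3 times (4.10 ± 0.76 (SE), limma adjusted p = 3.33e-04), immature thymic cDC2 exceeded cDC1 15.8 times (4.20 ± 0.76 (SE), limma adjusted p = 2.83e-04), and mature cDC2 exceeded cDC1 19.5 times (4.68 ± 0.82 (SE), limma adjusted p = 2.76e-04). The mature cDC1 mean rests on 0, 8 and 21 reads. With 1 mature sample left out, the difference between mature cDC2 and cDC1 in Tlr7 ran from 3.34, without replicate 1 of cDC1, to 5.41, without replicate 3 of cDC1, and was 5.28 without replicate 2 of cDC1 and 5.39 without replicate 3 of cDC2. Thymic cells were lower than splenic ones in both subsets, 5.23 times in cDC1 (-2.60 ± 0.71 (SE), limma adjusted p = 0.0163) and 5.75 times in cDC2 (-2.51 ± 0.82 (SE), limma adjusted p = 0.0336). The tissue effects of the subsets differed by 0.09 ± 1.08 (SE), limma adjusted p = 0.991. Within lane 8, which holds 1 splenic cDC2 sample, both tissue differences kept their size (-2.57 and -2.34) and neither passed the threshold (limma adjusted p = 0.256 and 0.385), nor did the splenic difference between subsets (3.88, limma adjusted p = 0.133). The change at maturation of cDC1 was called (-1.69 ± 0.76 (SE), limma adjusted p = 0.0647) although the groups overlapped, and without the library at 0 reads, replicate 1 of mature cDC1, it was -0.34, limma adjusted p = 0.647. Without replicate 2 or 3 it was -2.29 or -2.42. The edgeR test did not call it (-1.14, edgeR adjusted p = 0.141), and in limma the call was lost in 4 of 7 fits with 1 sample left out. In cDC2 the change was -1.20 ± 0.82 (SE), limma adjusted p = 0.243.

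Macrophage and monocyte genes also differed between these groups. The 10 listed genes, all with reads in every group, summed to 23378 to 31358 in splenic, 28527 to 39773 in immature thymic and 8253 to 44201 in mature thymic cDC2, and to 6913 to 9117, 4806 to 8289 and 610.2 to 1712 in the matching cDC1. C1qa, a complement gene of macrophages, lay at 444, 251 and 385 in splenic and 2797, 1614 and 2456 in immature thymic cDC2, an order opposite to that of Tlr7. In mature cDC2 it lay at 4196, 4445 and 532, lowest in replicate 3. That replicate also had the lowest Tlr2, Tlr3, Tlr4, Tlr7, Tlr9, Tlr12 and Unc93b1 of its group and the highest Tlr11 and Tlr13. The plasmacytoid DC list of 8 genes summed to 3532 to 3975, 5287 to 6095 and 5128 to 8203 in splenic, immature thymic and mature thymic cDC1, and to 3296 to 3969, 10654 to 12232 and 6140 to 8216 in cDC2, with Klk1 at 0 in mature cDC1. Siglech, a marker of plasmacytoid DCs, did not follow the sum in cDC1. It lay at 413, 468, 323 and 452 in immature and 0, 0 and 24.0 in mature thymic cDC1. In thymic cDC2 it lay at 732, 1120 and 813 in immature and 36.1, 37.6 and 40.8 in mature samples. The part of these cells in the values of the receptor genes was not tested.

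Tlr9 (ENSMUSG00000045322, chromosome 9, 106222598 to 106226883, plus strand), the sensor of unmethylated CpG DNA, differed little between the groups. It lay at 719.6, 1404, 1524 and 1119 in splenic, 2191, 1746, 1412 and 1449 in immature thymic and 1025, 724 and 1366 in mature thymic cDC1. In cDC2 it lay at 1075, 1226 and 1880.4, 1639, 1398 and 1366 and 2018, 1611 and 846 in the same order. Adjacent groups in the order of the means overlapped throughout, and no comparison of groups was called, the largest change being that of cDC1 at maturation (-0.73 ± 0.29 (SE), limma adjusted p = 0.0382), where the samples did not overlap but the change stayed below 2-fold. Without replicate 3 of mature cDC2 the difference between the maturation effects passed the threshold (1.04, limma adjusted p = 0.0946), against 0.67 ± 0.43 (SE), limma adjusted p = 0.338 with it.

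Tlr13 (ENSMUSG00000033777, chromosome X, 106143204 to 106160493, plus strand), which senses bacterial ribosomal RNA, likewise had no called difference. Values were 1071, 1755, 731 and 1385 in splenic, 916, 729, 557 and 637 in immature thymic and 1254, 816 and 1081 in mature thymic cDC1. They were 1264, 1516 and 1222, 938, 1116 and 913 and 1644, 1375 and 2064 in splenic, immature thymic and mature thymic cDC2. Mature cDC2 lay above immature thymic cDC2 without overlap, yet below 2-fold (0.76 ± 0.26 (SE), limma adjusted p = 0.0192). In cDC1 the change was 0.57 ± 0.24 (SE), limma adjusted p = 0.0491. Tlr9 and Tlr13 were thus the genes of the 10 with no call in any of the 9 comparisons.

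Tlr11 and Tlr12 encode endosomal receptors that act together on profilin, and both were higher in immature cDC1 than in any other group. Tlr11 (ENSMUSG00000051969, chromosome 14, 50357914 to 50363663, plus strand) lay at 6315, 9689, 4692 and 7424 in splenic and 5462, 4896, 4316 and 4639 in immature thymic cDC1. The other 4 groups held 625, 432 and 499 in mature thymic cDC1, 361, 695 and 440 in splenic, 365, 408 and 402 in immature thymic and 540.5, 371 and 634 in mature thymic cDC2. The lowest immature cDC1 sample was at 4316 and the highest of the other groups at 695, and those 4 groups overlapped each other, except that mature thymic cDC1 lay above immature thymic cDC2. Tlr11 fell 9.31 times at maturation of cDC1 (-3.23 ± 0.24 (SE), limma adjusted p = 3.23e-10). In cDC2 the change was 0.36 ± 0.25 (SE), limma adjusted p = 0.258, and the subsets differed (3.59 ± 0.35 (SE), limma adjusted p = 8.76e-07). Splenic cDC1 held 14.1 times the level of splenic cDC2 (-3.82 ± 0.24 (SE), limma adjusted p = 1.24e-10) and immature thymic cDC1 12.3 times that of cDC2 (-3.62 ± 0.24 (SE), limma adjusted p = 4.63e-10). In mature cells the subsets were at 518 and 515, with a difference of -0.03 ± 0.25 (SE), limma adjusted p = 0.959.

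Tlr12 (ENSMUSG00000062545, chromosome 4, 128615443 to 128618619, minus strand) moved at maturation in opposite directions in the subsets. In cDC1 it lay at 1579, 1709, 2423 and 1703 in the spleen, 1860.1, 2029, 2018 and 1462 in immature and 135, 95.3 and 259.9 in mature thymic cells. In cDC2 it lay at 41.2, 26.2 and 65.2, 138, 111 and 164 and 427, 399 and 229 in the same order, each group above the one before without overlap. It fell 11.3 times at maturation of cDC1 (-3.60 ± 0.32 (SE), limma adjusted p = 6.09e-09) and rose 2.56 times at maturation of cDC2 (1.31 ± 0.34 (SE), limma adjusted p = 0.00342). The effects differed (4.92 ± 0.47 (SE), limma adjusted p = 7.90e-07). The sum of the 5 cDC1 markers rose with Tlr12 in cDC2, at 2818 to 4785 in immature and 14299 to 22307 in mature thymic samples. Xcr1 and Clec9a went the other way in cDC2. Xcr1 lay at 88.6, 251 and 364 in immature and 20.7, 25.1 and 11.0 in mature thymic samples. Clec9a lay at 225, 423 and 405 in immature and 26.9, 39.7 and 41.6 in mature thymic samples. In cDC1 the sums were 82514 to 91759 and 40302 to 43791. The part of the cells with these markers in the Tlr12 values was not tested. Among immature cells cDC1 exceeded cDC2, 41.9 times in the spleen (-5.43 ± 0.32 (SE), limma adjusted p = 6.74e-11) and 13.4 times in the thymus (-3.74 ± 0.32 (SE), limma adjusted p = 2.20e-08). Among mature cells cDC2 exceeded cDC1 2.15 times (1.18 ± 0.34 (SE), limma adjusted p = 0.0166), with overlapping groups, and without replicate 2 of mature cDC1 the difference was 0.86, limma adjusted p = 0.102.

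The tissues differed in Tlr12 for cDC2 and not detectably for cDC1. Immature thymic cDC2 held 3.11 times the level of splenic cDC2 (1.69 ± 0.34 (SE), limma adjusted p = 0.00122), whereas the means of cDC1 were 1842 in the thymus and 1854 in the spleen (limma adjusted p = 1), and the difference of these effects was 1.69 ± 0.45 (SE), limma adjusted p = 0.0329. It missed the threshold without replicate 3 of immature thymic cDC2 (1.56, limma adjusted p = 0.107). In lane 8 alone, with 1 splenic cDC2 sample, the cDC2 effect was 1.04, limma adjusted p = 0.267, and the difference 1.20, limma adjusted p = 0.697. The sums of the 5 listed cDC1 markers in these cDC2 samples, with Xcr1 and Clec9a in opposite orders, are given above with Tlr3. The part of cDC1 cells in this tissue difference of Tlr12 was not tested.

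**Figure D3:**
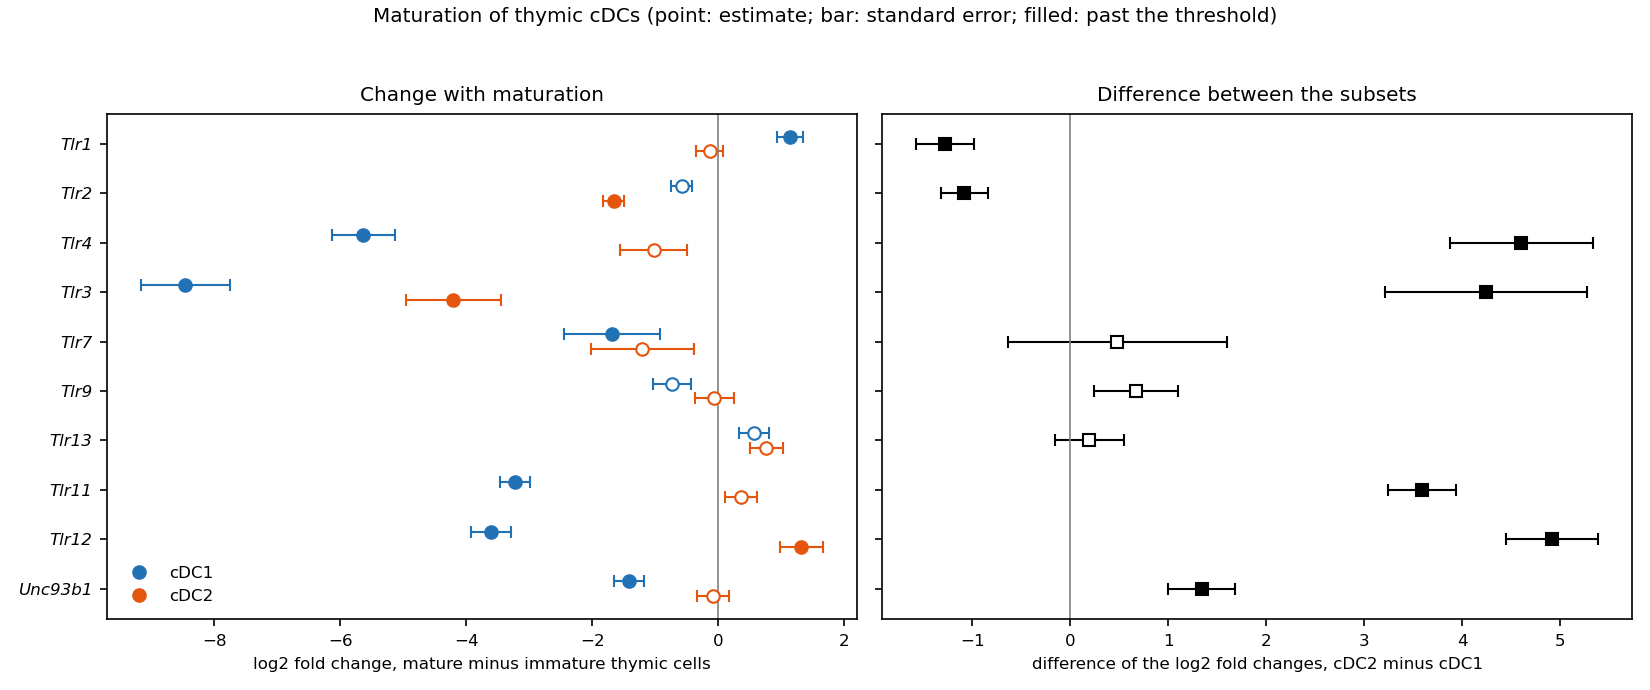
Log2 fold changes of the 10 genes at maturation of thymic cDC1 and cDC2 (left) and their difference, cDC2 minus cDC1 (right), from limma, with standard errors. Filled symbols are past the threshold, among them Tlr3 at -8.45 in cDC1 and -4.21 in cDC2 and Tlr12 at -3.60 and 1.31.

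Because Tlr3, Tlr11 and Tlr12 fell together at maturation of cDC1 while Tlr9 and Tlr13 were not called, the 250 bases before the annotated start of these 5 genes are given for comparison, from RefSeq on GRCm38.p6 and written 5′ to 3′ on the strand of the gene. Capitals mark matches, on either strand, to 6 short motifs, namely GAGGAA (ETS family), GAAANNGAA (interferon-response element type), GGAANNGAA (composite of ETS and IRF), TGANTCA (AP-1), GGGANTTTC (kappa B type) and CACGTG (E-box), of which GAGGAA can overlap GGAANNGAA. 7 of the 10 genes had promoter entries, and Tlr4, Tlr7 and Unc93b1, also called lower at maturation of cDC1, had none.
Tlr3 (chr8:45410381-45410630, minus strand): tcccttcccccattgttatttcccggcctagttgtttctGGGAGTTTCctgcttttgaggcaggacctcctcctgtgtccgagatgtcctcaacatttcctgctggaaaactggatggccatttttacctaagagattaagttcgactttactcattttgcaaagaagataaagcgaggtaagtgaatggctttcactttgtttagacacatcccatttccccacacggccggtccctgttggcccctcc
Tlr11 (chr14:50357664-50357913, plus strand): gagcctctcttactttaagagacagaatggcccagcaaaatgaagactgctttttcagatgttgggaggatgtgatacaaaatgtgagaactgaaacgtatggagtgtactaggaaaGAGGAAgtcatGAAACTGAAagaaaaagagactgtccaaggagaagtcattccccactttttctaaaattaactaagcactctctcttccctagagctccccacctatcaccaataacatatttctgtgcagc
Tlr12 (chr4:128618620-128618869, minus strand): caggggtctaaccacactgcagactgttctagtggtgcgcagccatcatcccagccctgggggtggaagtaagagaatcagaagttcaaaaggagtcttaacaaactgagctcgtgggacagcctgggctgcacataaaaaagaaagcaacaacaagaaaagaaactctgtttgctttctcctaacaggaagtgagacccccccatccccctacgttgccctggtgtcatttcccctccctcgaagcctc
Tlr9 (chr9:106222348-106222597, plus strand): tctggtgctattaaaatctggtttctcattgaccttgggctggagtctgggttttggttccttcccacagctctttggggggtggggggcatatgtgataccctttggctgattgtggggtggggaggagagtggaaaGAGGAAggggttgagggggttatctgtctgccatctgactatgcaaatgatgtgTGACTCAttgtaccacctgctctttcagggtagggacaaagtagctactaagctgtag
Tlr13 (chrX:106143025-106143274, plus strand): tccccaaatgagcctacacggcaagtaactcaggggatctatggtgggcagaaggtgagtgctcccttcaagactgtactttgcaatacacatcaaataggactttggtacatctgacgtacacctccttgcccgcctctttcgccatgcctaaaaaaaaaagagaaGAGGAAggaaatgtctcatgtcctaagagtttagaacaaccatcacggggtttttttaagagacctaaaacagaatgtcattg
Within these 250 bases, Tlr3 held 1 match to GGGANTTTC, Tlr11 held GAGGAA and GAAANNGAA, Tlr12 held none, Tlr9 held GAGGAA and TGANTCA, and Tlr13 held GAGGAA. No motif was shared by Tlr3, Tlr11 and Tlr12. From 250 bases before to 50 after the start, 28.3% of 32851 promoters held GAGGAA, 8.56% GAAANNGAA, 8.24% GGAANNGAA, 7.81% TGANTCA, 1.11% GGGANTTTC and 7.15% CACGTG. A match describes the letters and not the binding of a factor.

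Unc93b1 (ENSMUSG00000036908, chromosome 19, 3935186 to 3949340, plus strand) encodes the chaperone that carries the endosomal receptors from the endoplasmic reticulum, and it was lower in thymic cDC2 and in mature thymic cDC1 than in the other groups. Its values were 14325, 15694, 25756 and 16664 in splenic, 10668, 10775, 10712 and 9104 in immature thymic and 3504, 3424 and 4716 in mature thymic cDC1. In cDC2 they were 14880.2, 9464 and 19556 in the spleen, 5309, 4354 and 4734 in immature and 5662, 5068 and 3225 in mature thymic cells. Immature thymic cDC1 lay above all thymic cDC2 and all mature samples, and the 3 lowest groups overlapped. Unc93b1 fell 2.66 times at maturation of cDC1 (-1.42 ± 0.24 (SE), limma adjusted p = 2.76e-05). In cDC2, where Tlr11 was not called and Tlr12 rose, its change was -0.08 ± 0.25 (SE), limma adjusted p = 0.828, and the effects differed (1.34 ± 0.34 (SE), limma adjusted p = 0.0129). Immature thymic cDC2 held less than splenic cDC2, 3.05 times (-1.55 ± 0.25 (SE), limma adjusted p = 1.30e-04), and less than immature thymic cDC1, 2.15 times (-1.11 ± 0.24 (SE), limma adjusted p = 0.00136). In cDC1 the thymic samples also lay below the splenic ones without overlap, at -0.78 ± 0.22 (SE), limma adjusted p = 0.0202, short of 2-fold, and in lane 8 alone at -1.03, limma adjusted p = 0.0251, past the threshold. The difference of the tissue effects was -0.77 ± 0.33 (SE), limma adjusted p = 0.262, and without replicate 2 of splenic cDC2 it passed the threshold (-1.06, limma adjusted p = 0.0558).

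**Figure D4:**
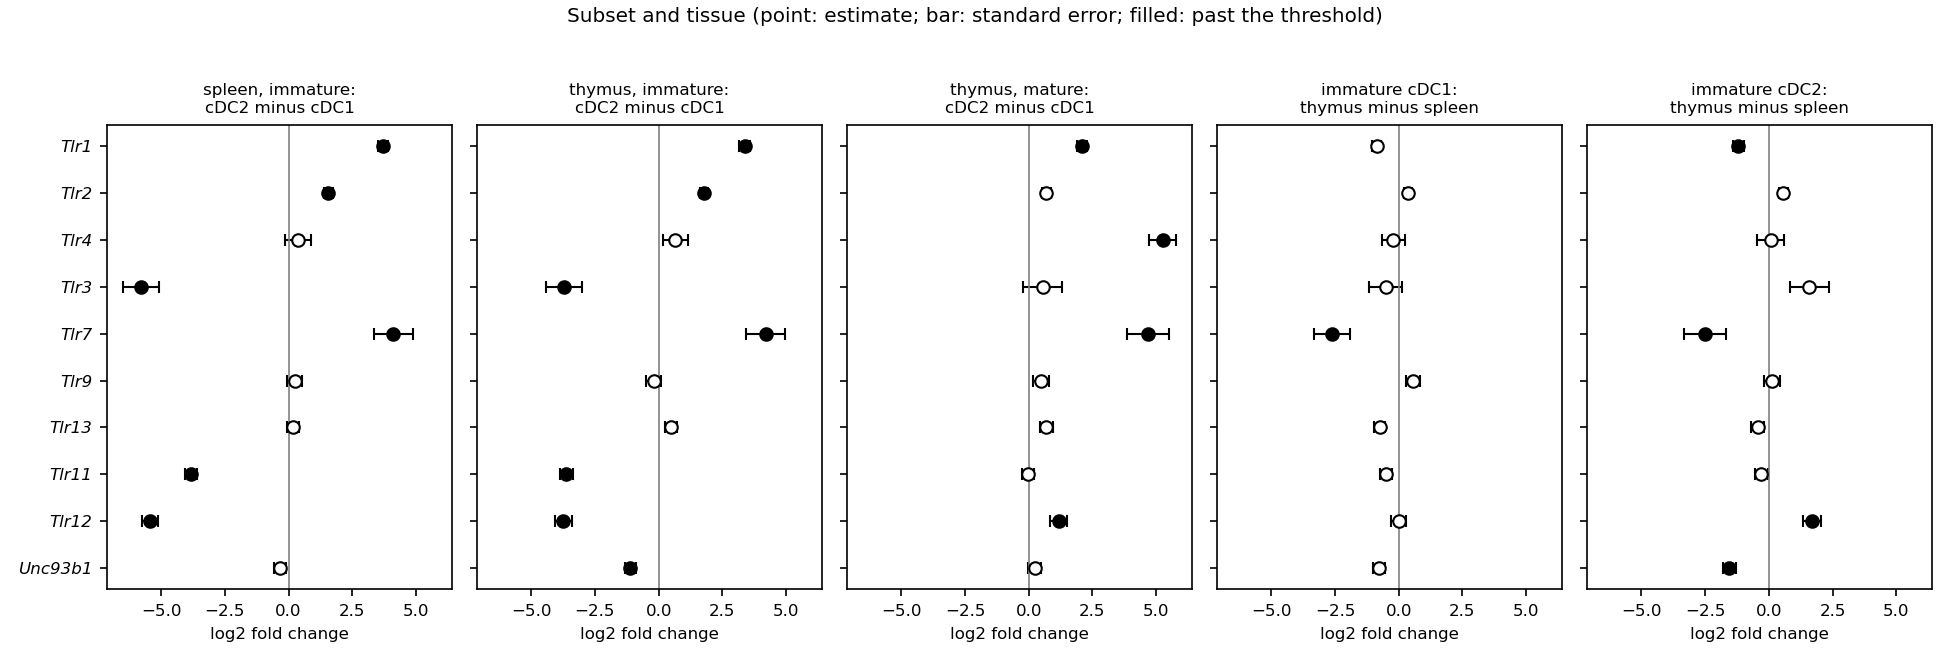
Log2 fold changes of the 10 genes between cDC2 and cDC1 in 3 settings and between thymic and splenic immature cells in each subset, from limma, with standard errors. Filled symbols are past the threshold, and Tlr12 lies at -5.43 and -3.74 in the immature comparisons of subsets and at 1.18 in the mature one.

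A two-sided exact permutation test of each of the 10 genes in each of the 7 comparisons of groups, 70 tests in all, reached its lowest Benjamini-Hochberg adjusted value of 0.08 in 25 of them, and 4 samples against 4 allow no exact p below 0.0286. Groups of 3 against 3 cannot go below an exact p of 0.1, which covers both comparisons within cDC2 and that of mature cells. For all genes, the share that reached an exact p of 0.0286 is not given here. The count of 25 therefore does not set these 10 genes apart from other genes. T cell genes were higher in the mature thymic samples, in which the RNA of Rag1 lay at 166 to 345 in cDC1 and 150.5 to 219 in cDC2, against 21.8 to 75.8 and 23.5 to 51.6 in immature thymic cells. The 6 listed T cell genes summed to 600.5 to 1128 and 582 to 1015 in mature cDC1 and cDC2, 94.1 to 155 and 87.5 to 181 in the immature thymic ones, and at most 85.1 in the spleen. The B cell gene Cd79a was at most 14.4 in any sample, while the B cell list of 6 genes was lower in mature than immature thymic samples, at 927 to 1101 against 3728 to 6001 in cDC1 and 1481 to 1683 against 3542 to 4821 in cDC2, and stood at 6264 to 8323 and 4926 to 6484 in splenic cDC1 and cDC2, with Pax5 at 0 in mature cDC1 and immature thymic cDC2. The lists of neutrophils, NK cells and erythroid cells reached at most 24.3, 180.3 and 70.2. The list of thymic epithelium summed to 3487 to 3816 in immature thymic cDC2 and at most 1009.9 in the other groups. The part of such cells in the differences at maturation was not tested.

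Other genes of the pathway were taken from 6 lists with 72 genes, of which 71 passed the filter on low values. At maturation of thymic cDC1, 22 were called higher and 19 lower, where 21.3% and 24.5% of all genes were, with a median log2 fold change of 0.33 beside -0.04 over all genes tested. In cDC2 the counts were 17 and 19, beside 18.6% and 17% of all genes, with medians of 0.22 and 0.04. Inhibitors of the pathway gave 8 higher and 2 lower of 16 in cDC1 and 8 higher and 2 lower of 16 in cDC2, and these counts and those of the lists that follow are to be read against the same shares of all genes. Among them, Tnfaip3, a ubiquitin-editing inhibitor of NF-κB signaling, rose in cDC1 (log2 fold change 2.39 ± 0.26 (SE)), and Nfkbia, which retains NF-κB in the cytoplasm, rose by 2.68 ± 0.22 in cDC1 and 2.15 ± 0.24 in cDC2. Irak3, an inactive kinase that restrains MyD88 signaling, rose from 11.9 to 109 in cDC1 (3.19 ± 0.37, limma adjusted p = 3.08e-07).

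The adaptors and kinases gave 9 higher and 5 lower of 24 in cDC1 and 5 higher and 4 lower of 24 in cDC2. Myd88, the shared adaptor of most of the receptors and named here after its values were seen, fell in cDC1 (722 ± 236 against 2078 ± 242 (SD), log2 fold change -1.57 ± 0.20) and in cDC2 (727 ± 151 against 2096 ± 72.3, -1.55 ± 0.21). Pik3ap1, an adaptor of PI3-kinase, fell in both, with log2 fold changes of -4.56 ± 0.33 and -3.06 ± 0.36. Traf6 and Ikbkb, which carry the signal to NF-κB, rose, Traf6 by 2.36 ± 0.13 in cDC1 and 1.85 ± 0.14 in cDC2, Ikbkb by 2.47 ± 0.12 in cDC1, and the kinase Ikbke rose by 5.41 ± 0.54 and 2.65 ± 0.57. Of the downstream factors, 2 higher and 2 lower of 8 were called in cDC1 and 2 higher and 1 lower of 8 in cDC2, Rel and Rela rising and Irf7 falling in both. Co-receptors and ligand-binding proteins gave 1 higher and 4 lower of 6 in each subset. Cd14, the co-receptor of Tlr4, fell in cDC1 (4.59 ± 4.00 against 81.8 ± 22.6) and in cDC2 (142 ± 71.2 against 849 ± 161). Ly96, which encodes MD-2, the partner of Tlr4, rose in both (2.47 ± 0.32 and 2.93 ± 0.34), in cDC1 beside a Tlr4 near 0. Cd180, which encodes a receptor-like surface protein, fell in both, with log2 fold changes of -5.54 ± 0.18 and -2.55 ± 0.20.

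Genes for folding, traffic and processing of the receptors gave 2 higher and 5 lower of 14 in cDC1 and 1 higher and 6 lower of 14 in cDC2. Hsp90b1, the endoplasmic reticulum chaperone of most Toll-like receptors, fell in both (-2.51 ± 0.20 and -2.26 ± 0.21). Lrrc59 and Sdcbp take part in the traffic of the endosomal receptors with Unc93b1, and Lrrc59 fell in cDC1 (-1.34 ± 0.18) and Sdcbp in both subsets (-1.37 ± 0.15 and -1.43 ± 0.16). Lgmn, an endopeptidase that processes Tlr9, rose from 679.9 to 10266 in cDC1 (3.88 ± 0.20) and by 1.58 ± 0.22 in cDC2. Scimp, an adaptor of the receptors, fell in both, with log2 fold changes of -4.26 ± 0.23 and -3.71 ± 0.25.

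Between the subsets, 23 pathway genes were called higher and 4 lower in splenic cDC2 than in cDC1, 17 and 4 in immature thymic and 10 and 2 in mature thymic cells, of 71 tested. Over all genes the shares were 9.93% and 6.7% in the spleen, 11% and 5.42% in immature thymic and 14.6% and 4.36% in mature thymic cells, so that the counts in mature cells were near those of all genes. Their median log2 fold changes were 0.32, 0.24 and 0.05, beside 0.02, 0.01 and 0.14 over all genes. The other receptor genes were higher in splenic cDC2, Tlr8, a sensor of RNA, at 415 ± 35.5 against 7.79 ± 5.86 (SD), Tlr5, the flagellin receptor, at 579.5 ± 109 against 142 ± 38.7 and Tlr6, the second partner of Tlr2, at 319 ± 61.9 against 89.0 ± 23.4. Ticam2, the adaptor of Tlr4 toward TRIF, was higher in cDC2 in all 3 comparisons, at 3.03 ± 0.33 in the spleen, 4.04 ± 0.33 in immature and 1.56 ± 0.35 in mature thymic cells, and Cd36, a co-receptor of Tlr2, was lower (-4.38 ± 0.33, -4.08 ± 0.33 and -2.26 ± 0.36). Slc15a4 and 5430427O19Rik, which act with the endosomal receptors at the lysosome, were higher in splenic cDC2 (1.86 ± 0.20 and 1.25 ± 0.31) and in immature thymic cDC2 (1.31 ± 0.20 and 1.52 ± 0.31), as Tlr7 was.

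Between tissues, 5 pathway genes were called higher and 3 lower in immature thymic than splenic cDC1, and 5 and 5 in cDC2, counts of 71 that were near the shares over all genes (4.26% and 4.52% in cDC1, 8.3% and 5.87% in cDC2), with medians of -0.10 and -0.24 beside 0.00 and 0.02. Irf7, the interferon factor downstream of Tlr7 and Tlr9, was higher in thymic cDC1 (14590.2 ± 2724 against 2737 ± 707 (SD), log2 fold change 2.43 ± 0.32) and in thymic cDC2 (11298 ± 1119 against 2857 ± 852, 2.03 ± 0.37), the reverse of Tlr7 itself. Tlr5 was lower in thymic than splenic cDC1 (3.61 ± 4.00 against 142 ± 38.7, -5.37 ± 0.57) and cDC2 (179 ± 6.24 against 579.5 ± 109, -1.67 ± 0.66, limma adjusted p = 0.0842). Hsp90b1 was higher in thymic cDC2 (1.73 ± 0.21), and Unc93b1, as given above, was lower.

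The genes with a profile most like 9 of the 10 were taken by Pearson's r of log2(value + 1) over the 20 samples, which share their 6 groups, so that r mostly reflects the group means. They were Clec10a (r = 0.96) for Tlr2, Mlec (r = 0.97) for Tlr3, Tmem241 (r = 0.96) for Tlr4 and Cd93 (r = 0.96) for Tlr7. Next to Tlr11 was Cdkl1 (r = 0.97), next to Tlr12 Man1b1 (r = 0.96) and next to Unc93b1 Fam102a (r = 0.95). Tlr9 and Tlr13, the genes without a called difference, had the lowest values of r, with Tmem150a (r = 0.83) and Klhl24 (r = 0.90).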

How the data were processed

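RNAseq libraries were made by the authors with a TruSeq stranded mRNA kit from sorted, pooled cells. Per the methods of the study, reads were trimmed with Cutadapt, aligned to mm10 with STAR (2.6 in the processing notes) and counted with HTSeq-count, and the deposited values are a signal in normalized reads, that is, counts divided by the size factors of DESeq2 (1.24.0). Such scaling removes differences in depth but also in total RNA per cell. Whole reads were recovered from the steps of the values (100% whole within 0.01) for the count tests. Of 37734 genes, 14970 reached 10 in 3 or more samples and were tested with limma 3.58.1 (R 4.3.3) on log2(value + 1) in 1 fit over 6 groups of 20 samples. Alternatives were edgeR 4.0.16 and DESeq2 1.42.0 on recovered reads, other pseudocounts (0.1 and 8), filters, thresholds, samples and lanes. Scripts were tested on simulated data. Positions are those of GENCODE on GRCm38. The 10 genes, pathway lists, cell type markers and motifs were chosen with earlier results of these data known. Named pathway genes are those called, at most 6 per list and comparison by size of change, besides Myd88. Samples were grouped by the submitters' labels. The gene most like Tlr1 in profile is not reported here.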

Additional observations from a re-analysis of the deposited data

Results flagged for a closer look

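Among groups of 4 samples, 3 values of the 10 genes lay farther from their group than Dixon's critical value at the 95% level allows, where chance alone gives about 1 in 20 groups. Tlr2 in replicate 3 of immature thymic cDC1 was at 1075, below the other 3. Tlr12 in replicate 3 of immature splenic cDC1 was at 2423, above the others, and this library also stood apart over all genes. Unc93b1 in replicate 4 of immature thymic cDC1 was at 9104, the lowest of its group.

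The difference of the maturation effects, as log2 fold changes (cDC2 minus cDC1), was called by limma for 7 genes. Of all genes, 8.34% were called positive and 5.25% negative. The difference was -1.28 ± 0.29 (SE) for Tlr1 and -1.08 ± 0.24 (SE) for Tlr2, both negative. That of Tlr2 lost its call in 3 of 13 fits with 1 sample left out. Positive differences were 4.25 ± 1.03 (SE) for Tlr3, 4.61 ± 0.73 (SE) for Tlr4, 3.59 ± 0.35 (SE) for Tlr11, 4.92 ± 0.47 (SE) for Tlr12 and 1.34 ± 0.34 (SE) for Unc93b1. The difference of the tissue effects was called for Tlr12 (1.69 ± 0.45 (SE)), beside 3.27% of all genes called positive and 1.71% negative. It lost its call in 1 of 14 fits with 1 sample left out.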

How the results depend on the processing

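Under a limit of 4-fold in place of 2-fold, the number of the 10 genes called was 4 for cDC1 maturation, 1 for cDC2 maturation, 1 for the tissues in cDC2, 4 for the difference of maturation effects and 0 for the difference of tissue effects, and that of the pathway genes 19 for cDC1 maturation, 13 for cDC2 maturation, 3 for the tissues in cDC1, 2 for the tissues in cDC2, 11 for the splenic subsets, 9 for the immature thymic subsets and 5 for the mature subsets. With the adjusted p alone, the 10 genes gave 4 for the tissues in cDC1, and the pathway genes 57 for cDC2 maturation, 20 for the tissues in cDC1, 32 for the tissues in cDC2, 41 for the splenic subsets, 34 for the immature thymic subsets and 25 for the mature subsets. Keeping only genes at 10 or more in every sample, which removed low genes, left 4 for cDC1 maturation, 0 for the tissues in cDC1 and 2 for the mature subsets among the 10 and 5 for the tissues in cDC1 and 13 for the immature thymic subsets among the pathway genes. In lane 8 alone, with fewer samples, the counts were 2 for the tissues in cDC2 and 0 for the difference of tissue effects of the 10 and 5 for the tissues in cDC1 of the pathway genes, and a pseudocount of 0.1 gave 0 for the tissues in cDC1. For the difference of tissue effects, 2 genes were called by edgeR with either kind of factors, with a pseudocount of 8 and with only the groups compared, and 0 to 2 when 1 sample was left out (0 without replicate 3 of immature thymic cDC2 and 2 without replicate 2 of splenic cDC2). All counts in this paragraph are given without the shares of all genes at the same settings. They show how the number of calls moved, not how it stands against all genes.

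Changes of direction occurred in differences that were not called, and the cause was not tested. With edgeR with TMM factors the log2 values were 0.054 for Tlr9 in cDC2 maturation, -0.023 for Tlr4 in the tissues in cDC2, 0.0091 for Tlr11 in the mature subsets and -0.22 for Tlr7 in the difference of tissue effects. With edgeR with RLE factors the log2 values were 0.022 for Tlr9 in cDC2 maturation, -0.034 for Tlr4 in the tissues in cDC2 and -0.22 for Tlr7 in the difference of tissue effects. With DESeq2 the log2 values were 0.022 for Tlr9 in cDC2 maturation, -0.035 for Tlr4 in the tissues in cDC2 and -0.18 for Tlr7 in the difference of tissue effects. With lane 8 alone the log2 values were 0.020 for Tlr9 in cDC2 maturation and -0.44 for Tlr9 in the tissues in cDC2. With values rescaled by TMM the log2 values were 0.00060 for Tlr12 in the tissues in cDC1. With all 21 libraries the log2 values were 0.020 for Tlr12 in the tissues in cDC1. With a pseudocount of 8 the log2 values were -0.33 for Tlr7 in the difference of maturation effects and -0.29 for Tlr7 in the difference of tissue effects. With 1 sample left out, they ran from -0.33 to 0.30 for Tlr9 in cDC2 maturation, from -0.24 to 0.16 for Unc93b1 in cDC2 maturation, from -0.57 to 0.10 for Tlr4 in the tissues in cDC1, from -0.070 to 0.14 for Tlr12 in the tissues in cDC1, from -0.11 to 0.39 for Tlr4 in the tissues in cDC2, from -0.054 to 0.35 for Tlr9 in the tissues in cDC2, from -0.051 to 0.37 for Tlr13 in the splenic subsets, from -0.22 to 1.95 for Tlr3 in the mature subsets, from -0.19 to 0.19 for Tlr11 in the mature subsets, from -0.86 to 1.22 for Tlr7 in the difference of maturation effects, from -0.033 to 0.64 for Tlr4 in the difference of tissue effects, from -0.41 to 0.49 for Tlr7 in the difference of tissue effects and from -0.00081 to 0.47 for Tlr11 in the difference of tissue effects.

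Outside the samples left out, 1204 results kept their direction and side of the threshold, 29 lost a call, 24 gained one and 16 changed direction. Pool numbers were shared between immature subsets. Deviations of same-numbered samples from their group means had correlations of -0.01, 0.31 and 0.43 in the spleen and -0.03, 0.20 and 0.27 in the thymus. Differently numbered samples gave -0.46 to 0.24 and -0.33 to 0.18. Deviations cancel out within each small group, so these correlations depend on each other and cannot decide whether same-numbered samples vary together. A fit with the pool as replicate block changed none of the 20 calls of the 10 genes in those comparisons. Pool number 8 also joined replicate 1 of mature cDC1 to immature thymic samples, and 569 joined replicate 3 of mature cDC1 to replicate 3 of mature cDC2. The block fit did not cover comparisons with mature samples. Tlr3, Tlr4 and Tlr7 in mature cDC1 rest on few reads, as does Tlr3 in replicate 3 of mature cDC2, which limits their ratios.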
